A study of Oryza sativa with 9 samples.

Results

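In chilled rice shoots, 43 of 55801 counted loci differed strongly from wild type in libraries labelled ossro1c while staying near wild type in libraries labelled osdreb2b. Of these, 38 were higher in ossro1c-labelled libraries and 5 were lower. Members were chosen by their CPM (the count of a locus divided by the library total, times 1000000), averaged over the 3 libraries of a genotype, with 0.1 CPM added to each mean. A member had a mean of at least 10 CPM in its highest genotype, differed at least 6-fold between ossro1c and WT, and lay within 1.5-fold of WT in osdreb2b. These limits were applied to the values of all 9 libraries, so the ratios to WT below describe the members and carry no test.

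RNA came from shoots of Oryza sativa seedlings with 4 leaves in the ZH11 background, a japonica cultivar widely used for rice transformation. There were 3 libraries for each of 3 genotypes: ossro1c, osdreb2b and wild type (WT). All plants of all groups had been held at 4 °C for 2 d, so the comparisons are between genotypes in the cold and contain no response to cold. The sources used here do not give the kind of each mutation, the number of lines behind a genotype or any pooling of plants. Nothing in the labels ties replicates to separate plants, so p-values measure the spread between these libraries, which may be technical.

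SRO proteins such as OsSRO1c occur in plants, carry a PARP-like domain and bind transcription factors in stress responses. OsDREB2B belongs to the DREB2 class of AP2/ERF transcription factors, known for activating genes of drought, heat and cold responses through a short promoter element. The study treats the pair as a complex and looks for genes that depend on both. Genes that differ under the label of 1 partner and stay near WT under that of the other are the complement of that question.

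The transcripts of the partners followed the mutant labels only in part. OsSRO1c was below WT under its own label but lower still under the other, and OsDREB2B was above WT under its own label. OsSRO1c (LOC_Os03g12820, chromosome 3) stood at 1857, 1827 and 1839 CPM in WT, at 431.1, 470.7 and 494.0 CPM in ossro1c-labelled libraries, and at 127.9, 133.7 and 135.7 CPM in osdreb2b-labelled libraries. Its log2 fold change in ossro1c-labelled libraries against WT was -2.3 (SE 0.07, adjusted p = 2.7e-11, edgeR quasi-likelihood). Its lowest level stood under the other gene's label, by a log2 fold change of -1.63 between the mutant labels (SE 0.07, adjusted p = 6.7e-10, edgeR). OsDREB2B (LOC_Os05g27930, chromosome 5) stood at 150.3, 150.2 and 155.6 CPM in WT, at 75, 68.68 and 87.37 CPM in ossro1c-labelled libraries, and at 315.8, 298.2 and 309.2 CPM in osdreb2b-labelled libraries. Its difference between the mutant labels was 2.18 (SE 0.10, adjusted p = 5.4e-10, edgeR), and the exact two-sided permutation test gave p = 0.1 for each gene, the smallest that 3 libraries against 3 allow. Each direction below belongs to the libraries carrying the label, and whether the labels match the mutated genes was not tested.

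Library totals ran from 58398026 to 69336224 counts, with 28026 to 29383 loci detected. The 4 shoot markers differed among themselves. In ossro1c-labelled libraries, the mean of the antenna loci was 22.5% of WT for CAB1R (293.8 ± 8.251 CPM in WT, SD, n = 3, against 66.01 ± 14.68 CPM) and 126% for CAB2R, and the mean of the Rubisco small subunit loci was 108% for RBCS2 and 206% for RBCS3. In osdreb2b-labelled libraries the same means were 660%, 2720%, 204% and 234% of WT. The names of CAB1R, RBCS2 and RBCS3 did not pass the check against the reference gene table. Of the root markers, the silicon channel Lsi1 rose from 2.176 ± 0.2999 CPM in WT to 19.62 ± 1.858 CPM in ossro1c-labelled libraries (SD, n = 3; log2 fold change 2.85, SE 0.17, adjusted p = 5.8e-09, edgeR) and to 10.13 ± 1.624 CPM in osdreb2b-labelled ones (2.08, SE 0.17, adjusted p = 1.2e-07). Lsi2 had no count in any library, and IRT1 stayed at or below 0.2783 CPM. The meristem gene OSH1 also had no count in any library. Replicate 3 of ossro1c stood above the other two in all 4 shoot markers, for example CAB2R (93.75, 106.7 and 151.7 CPM) and RBCS2 (5804, 5586 and 7944 CPM). The part of tissue makeup in the members' values was not tested, and in whole shoots fewer cells of a type and less RNA per cell cannot be told apart.

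Strong change in ossro1c-labelled libraries with a near-WT level in osdreb2b-labelled libraries was the less common outcome. Of 12605 loci with a highest mean of at least 10 CPM, 359 (2.85%) were at least 6-fold higher in ossro1c-labelled libraries. Of these 359, 319 (88.9%) were also more than 1.5-fold above WT in osdreb2b-labelled libraries, 2 were more than 1.5-fold below, and the other 38 (10.6%) are the rises. At least 6-fold lower were 227 loci (1.8%), of which 214 (94.3%) were also below the 1.5-fold limit in osdreb2b-labelled libraries, 8 were above it, and 5 (2.2%) are the falls. With the mutant labels exchanged in the same rule, 39 loci were higher and 13 lower in osdreb2b-labelled libraries alone, of 280 (2.22%) at least 6-fold higher and 414 (3.28%) at least 6-fold lower there. Among all 12605 loci, 5442 (43.2%) lay within 1.5-fold of WT in osdreb2b-labelled libraries. The mutant groups share their WT libraries, so an error in WT enters both ratios.

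**Figure D1:**
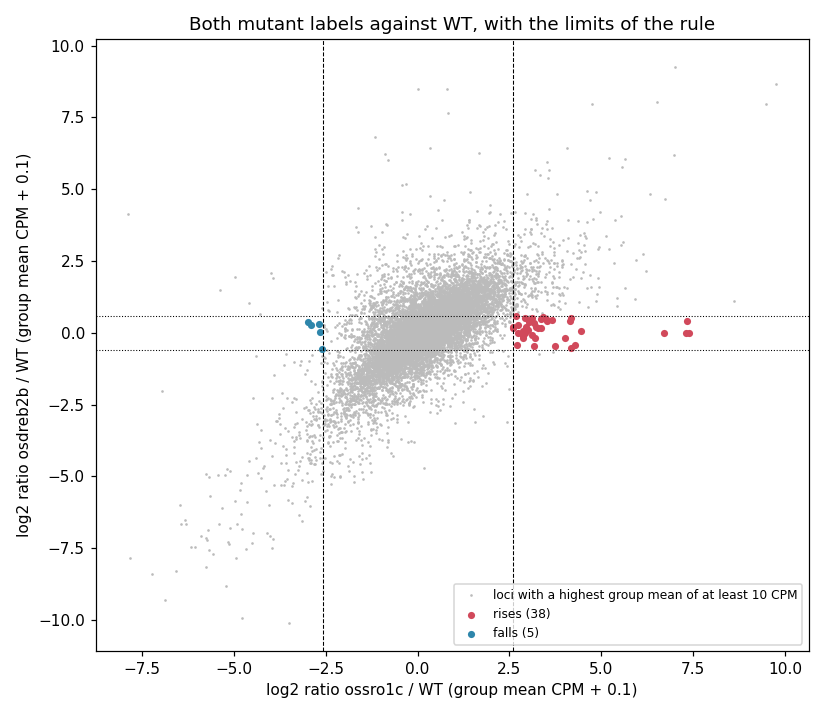
Log2 ratio of ossro1c to WT (horizontal axis) against log2 ratio of osdreb2b to WT (vertical axis), from group means in CPM plus 0.1, for the 12605 loci with a highest mean of at least 10 CPM. Dashed lines mark 6-fold and dotted lines 1.5-fold; the 38 rises (red) and 5 falls (blue) lie in the outer boxes between the dotted lines, and most other loci beyond a dashed line lie outside the dotted lines.

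Summed over the 38 rises, the level was 512, 502 and 498 CPM in the WT libraries, 4634, 4795 and 4868 CPM in ossro1c-labelled libraries, and 520, 498 and 547 CPM in osdreb2b-labelled libraries. The WT and osdreb2b sums overlapped, and every ossro1c sum was far above both, as the limits of membership require of each locus. The sums weigh abundant loci most: LOC_Os07g39350 and LOC_Os07g03040 had ossro1c means of 1291 and 935.9 CPM. The ratio of ossro1c to WT ran from 6.04 to 168, with a median of 9.21; 17 rises reached 10-fold and 5 reached 20-fold. In each rise the lowest ossro1c library was at least 4.86 times the highest WT library, both with 0.1 CPM added. By level in WT, 8 rises had a mean below 1 CPM, 22 had 1 to 10 CPM and 8 had at least 10 CPM. The median ratio was 63.1 in the group below 1 CPM, 8.63 in the middle group and 8.31 in the group of at least 10 CPM. The limits shape this order. A rise below 1 CPM in WT reaches the floor of 10 CPM only through ossro1c-labelled libraries, which forces a high ratio. Where WT had no count, the ratio depends on the 0.1 CPM added. Nothing is read from this order about the level of a locus in WT and the size of its change. The count table names no genes, and no member was paired with a name in the reference gene table, so the members are given by locus identifier and no function is stated for them.

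**Figure D2:**
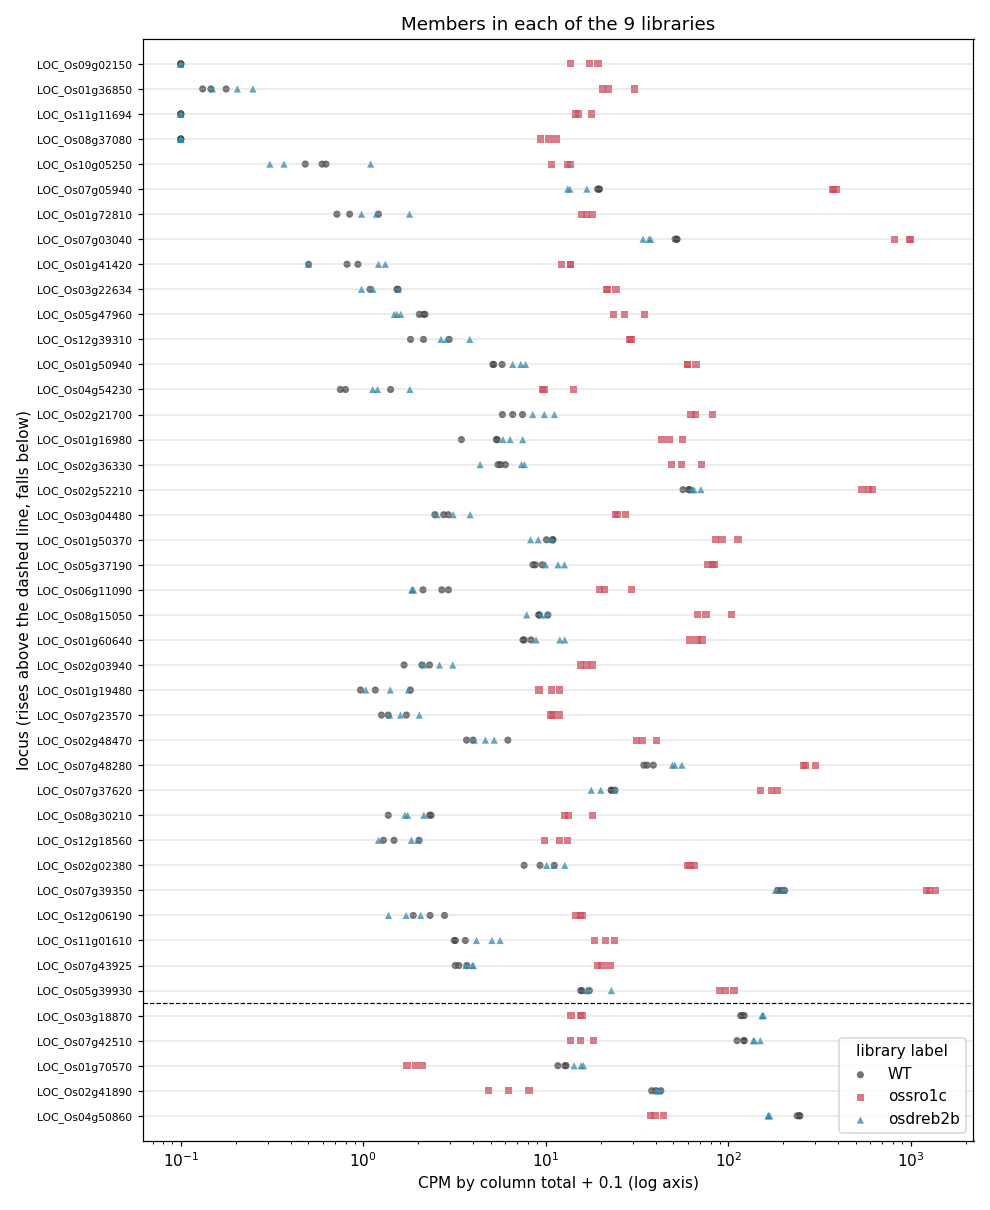
CPM plus 0.1 (log axis) of each of the 43 members in each of the 9 libraries, WT as grey circles, ossro1c as red squares and osdreb2b as blue triangles. The red squares stand apart from the other symbols in every row, to the right in the 38 rises and to the left in the 5 falls below the dashed line, while grey and blue symbols lie close together.

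Among the rises, 3 loci had no count in any WT or osdreb2b library. LOC_Os09g02150 on chromosome 9 had 1124, 1174 and 943 counts in ossro1c-labelled libraries, or 19.25, 17.32 and 13.6 CPM. LOC_Os11g11694 on chromosome 11 had 1031, 1023 and 998 counts, or 17.65, 15.09 and 14.39 CPM. LOC_Os08g37080 on chromosome 8 had 538, 700 and 789 counts, or 9.213, 10.33 and 11.38 CPM. All 3 were thus read in each ossro1c library and in none of the other 6. Taking 3 counts over the 3 WT libraries as the limit that a count of 0 allows (0.01559 CPM, counting error only), they were at least 1072-fold, 1007-fold and 660-fold higher in ossro1c-labelled libraries. Across the table, 3 loci with at least 10 CPM were counted in ossro1c-labelled libraries alone, against 1 in WT alone and 1 in osdreb2b-labelled libraries alone.

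LOC_Os01g36850 on chromosome 1 came next, with 5, 2 and 3 counts in WT, 1786, 1497 and 1416 in ossro1c-labelled libraries, and 7, 3 and 10 in osdreb2b-labelled libraries. Its ossro1c level was 30.58, 22.08 and 20.42 CPM, and its ratio to WT was 161.2 with 0.1 CPM added to each mean. The WT and osdreb2b counts overlapped, and a difference between them was not detectable at this depth. LOC_Os10g05250 on chromosome 10 stood at 0.4947, 0.3813 and 0.5248 CPM in WT, 13, 13.51 and 10.64 CPM in ossro1c-labelled libraries, and 0.2679, 0.9974 and 0.2078 CPM in osdreb2b-labelled libraries. The spread in osdreb2b-labelled libraries came from 1 library, replicate 2, and included the WT range. LOC_Os01g72810 on chromosome 1 stood at 0.7421, 1.112 and 0.6174 CPM in WT, 15.55, 16.61 and 18.01 CPM in ossro1c-labelled libraries, and 0.8781, 1.079 and 1.692 CPM in osdreb2b-labelled libraries, an 18.21-fold ratio. Its osdreb2b libraries also overlapped those of WT.

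The 8 rises with the highest means had WT means of 10.6 to 195 CPM. LOC_Os07g39350 on chromosome 7 had the highest group mean of all members. It stood at 203.7, 195.8 and 186.5 CPM in WT, 1226, 1274 and 1372 CPM in ossro1c-labelled libraries, and 200.8, 181.4 and 200.2 CPM in osdreb2b-labelled libraries. Its WT and osdreb2b libraries overlapped, and its ratio in ossro1c-labelled libraries was 6.604. LOC_Os07g03040, also on chromosome 7, had WT levels of 52.29, 52.19 and 51.08 CPM against 1002, 986.3 and 819.4 CPM in ossro1c-labelled libraries, an 18.02-fold ratio. Under the osdreb2b label it stood at 36.73, 37.48 and 34.02 CPM, below every WT library, so that its levels in the mutant groups lay on opposite sides of WT.

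LOC_Os07g05940 on chromosome 7 showed the same order. It stood at 19.45, 19.62 and 19.14 CPM in WT, 377.9, 389.9 and 375.2 CPM in ossro1c-labelled libraries, and 13.08, 13.46 and 16.7 CPM in osdreb2b-labelled libraries. Its ratio was 19.54, and the 3 ossro1c libraries differed little. LOC_Os02g52210 on chromosome 2 stood at 61.19, 56.43 and 60.76 CPM in WT, 541.3, 588.0 and 615.1 CPM in ossro1c-labelled libraries, and 63.25, 64.88 and 70.75 CPM in osdreb2b-labelled libraries. Here all 3 osdreb2b libraries lay just above WT by library totals, and the ossro1c ratio was 9.764. In the edgeR fit, which scales by TMM, this locus was called neither higher nor lower in osdreb2b-labelled libraries (log2 fold change 0.02, SE 0.08). LOC_Os07g48280 on chromosome 7 stood at 34.38, 35.86 and 38.79 CPM in WT, 265.7, 299.4 and 258.3 CPM in ossro1c-labelled libraries, and 49.4, 50.84 and 55.63 CPM in osdreb2b-labelled libraries. Its osdreb2b libraries were all above WT, close to the 1.5-fold limit at a ratio of 1.428.

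The remaining 3 of the 8 rises with the highest means were LOC_Os07g37620, LOC_Os05g39930 and LOC_Os01g50370. LOC_Os07g37620 stood at 22.73, 23.85 and 22.81 CPM in WT, 150.6, 172.1 and 187.1 CPM in ossro1c-labelled libraries, and 19.91, 17.66 and 23.76 CPM in osdreb2b-labelled libraries. LOC_Os05g39930 on chromosome 5 stood at 17.24, 15.47 and 15.65 CPM in WT, 89.8, 96.49 and 107.5 CPM in ossro1c-labelled libraries, and 16.68, 16.69 and 22.8 CPM in osdreb2b-labelled libraries. LOC_Os01g50370 on chromosome 1 stood at 10.85, 10.82 and 9.987 CPM in WT, 84.87, 92.44 and 113.0 CPM in ossro1c-labelled libraries, and 10.67, 8.159 and 8.994 CPM in osdreb2b-labelled libraries. In all 3 loci the WT and osdreb2b libraries overlapped by library totals, and replicate 3 was the highest of the ossro1c libraries. The edgeR fit, which scales by TMM, called LOC_Os07g37620 and LOC_Os01g50370 lower than WT in osdreb2b-labelled libraries. Their log2 fold changes there were -0.32 (SE 0.12) and -0.33 (SE 0.13). LOC_Os05g39930 (0.08, SE 0.13) was called neither higher nor lower there.

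The falls numbered 5. Their summed level was 537, 528 and 538 CPM in WT, 83, 76 and 78 CPM in ossro1c-labelled libraries, and 529, 516 and 513 CPM in osdreb2b-labelled libraries. By library totals, WT exceeded ossro1c by a median of 6.45-fold, and none reached 8-fold. With TMM-scaled CPM the ratio of ossro1c to WT in the falls ran from 0.101 to 0.132 with a median of 0.125, and WT was 9.92-fold above ossro1c in LOC_Os03g18870 and 9.35-fold in LOC_Os07g42510. No fall was lost altogether: the lowest ossro1c library of any fall held 107 counts.

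LOC_Os03g18870 on chromosome 3 had the largest fall. It stood at 116.9, 122.3 and 119.5 CPM in WT, 13.66, 15.43 and 15.72 CPM in ossro1c-labelled libraries, and 153.0, 155.8 and 154.7 CPM in osdreb2b-labelled libraries, so that WT was 7.957-fold above ossro1c. Its osdreb2b libraries were all above WT. LOC_Os07g42510 on chromosome 7 followed at 121.9, 111.7 and 122.1 CPM in WT, 15.48, 13.51 and 18.13 CPM in ossro1c-labelled libraries, and 149.7, 139.1 and 137.3 CPM in osdreb2b-labelled libraries, again with every osdreb2b library above WT. LOC_Os01g70570 on chromosome 1 stood at 12.63, 12.84 and 11.55 CPM in WT, 1.832, 1.637 and 2.019 CPM in ossro1c-labelled libraries, and 15.98, 15.52 and 14.19 CPM in osdreb2b-labelled libraries. By library totals, the mutant groups lay on opposite sides of WT in these 3 falls. In the edgeR fit, which scales by TMM, only LOC_Os03g18870 was called higher than WT in osdreb2b-labelled libraries (log2 fold change 0.23, SE 0.08). LOC_Os07g42510 (0.12, SE 0.1) and LOC_Os01g70570 (0.16, SE 0.12) were called neither higher nor lower there.

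LOC_Os02g41890 on chromosome 2 stood at 40.0, 42.63 and 37.96 CPM in WT, 7.997, 6.166 and 4.745 CPM in ossro1c-labelled libraries, and 42.06, 40.31 and 41.14 CPM in osdreb2b-labelled libraries. It was the fall whose WT and osdreb2b libraries overlapped. LOC_Os04g50860 on chromosome 4 had the most counts among the falls, at 245.8, 238.9 and 247.0 CPM in WT, 43.91, 39.64 and 37.33 CPM in ossro1c-labelled libraries, and 168.7, 165.8 and 165.4 CPM in osdreb2b-labelled libraries. Its osdreb2b libraries were all below WT, so this locus was lower in both mutant groups, by 6.042-fold in ossro1c-labelled libraries and to a ratio of 0.6832 in osdreb2b-labelled libraries.

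Near-WT in osdreb2b-labelled libraries did not mean equal to WT. The ratio of osdreb2b to WT in the 38 rises ran from 0.696 to 1.49 with a median of 1.12. All 3 osdreb2b libraries lay above all 3 WT libraries in 8 rises and below in 4, and the groups overlapped in 26. The 12 rises without overlap are 31.6%, where the share was 69% over all 5442 loci within the same 1.5-fold limits and 86.5% over all 12605 loci. Among the falls, 3 lay above WT, 1 lay below and 1 overlapped. In the edgeR fit, which scales libraries by TMM, 5 rises were called higher than WT in osdreb2b-labelled libraries, 7 lower and 26 neither, where 29.9% of the 26112 loci tested were called higher and 29.6% lower (59.6% in either direction). The falls gave 1 higher, 1 lower and 3 neither. Because the limits of membership fix these ratios near 1, nothing is read from these counts about the members.

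Scaling by library total or by TMM changes the membership. Over all tested loci, the median log2 fold change from WT under library totals was 0.32 in ossro1c-labelled and 0.17 in osdreb2b-labelled libraries, against 0 and 0.03 under TMM. With TMM-scaled CPM, the ossro1c to WT ratio of the 38 rises ran from 4.85 to 150 with a median of 7.42. The rule then kept 22 of the 38: LOC_Os07g39350 and 8 others came under 6-fold, LOC_Os07g03040 and 2 others left the 1.5-fold limits, and LOC_Os08g37080 and 3 others came under 10 CPM. Of the 5 falls it kept 4, LOC_Os04g50860 leaving at an osdreb2b ratio of 0.62. In the edgeR fit the log2 fold changes in ossro1c-labelled libraries ran from 2.28 to 8.5 over the 35 rises with a count in WT (SE 0.08 to 0.42) and from -3.32 to -2.92 over the falls (SE 0.07 to 0.14).

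**Figure D3:**
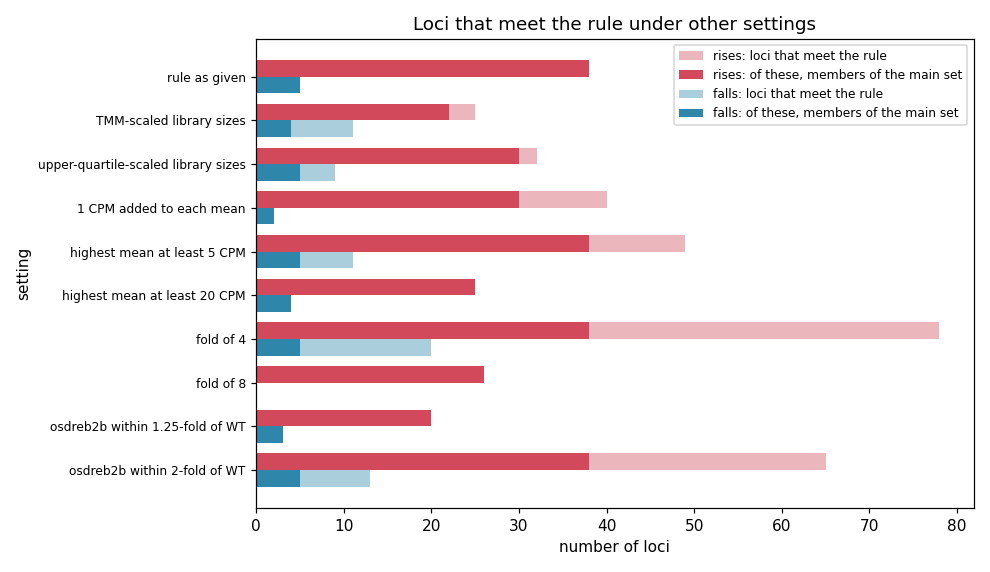
Number of loci (horizontal axis) that meet the rule as given and under each of 9 other settings, rises in red and falls in blue, with the dark part of each bar for loci that are also members under the rule as given. TMM scaling leaves 25 rises, 22 of them members, and 11 falls, 4 of them members; a fold of 8 leaves 26 rises and 0 falls.

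The loci on either side of each limit were as follows. The rises nearest to the 6-fold limit were LOC_Os05g39930 (6.04), LOC_Os07g43925 (6.07) and LOC_Os11g01610 (6.37), and just outside were LOC_Os07g04850 (5.77), LOC_Os04g52090 (5.75) and LOC_Os09g27330 (5.64). The falls nearest to it were LOC_Os04g50860 (WT 6.04-fold above ossro1c), LOC_Os02g41890 (6.29) and LOC_Os01g70570 (6.45), with LOC_Os12g10660 (5.90), LOC_Os08g37456 (5.82) and LOC_Os01g47190 (5.64) just outside. At the upper limit of the osdreb2b ratio, the rises LOC_Os11g01610 (1.49), LOC_Os02g21700 (1.48) and LOC_Os01g60640 (1.43) were inside and LOC_Os02g03420, LOC_Os02g14840 (1.51) and LOC_Os11g31190 (1.52) outside. At the lower limit, LOC_Os07g03040 (0.696), LOC_Os06g11090 (0.721) and LOC_Os05g47960 (0.726) were inside, and the 2 strong risers outside it were LOC_Os12g05440 (0.626) and LOC_Os06g46960 (0.595).

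For the falls, the highest osdreb2b ratios inside were those of LOC_Os03g18870 (1.29), LOC_Os01g70570 (1.23) and LOC_Os07g42510 (1.20), and the next outside were LOC_Os02g57280 (1.58), LOC_Os06g21330 (1.82) and LOC_Os01g42190 (2.05). LOC_Os02g57280 went from 498 CPM in WT to 25.2 CPM in ossro1c-labelled libraries and 789 CPM in osdreb2b-labelled libraries. Below the lower limit lay LOC_Os10g28080 (0.594), LOC_Os09g23650 (0.58) and LOC_Os04g30750 (0.577). At the floor, the rises LOC_Os08g37080 (10.3 CPM), LOC_Os01g19480 (10.5 CPM) and LOC_Os07g23570 (11.1 CPM) were inside and LOC_Os01g44970 (9.38 CPM), LOC_Os06g39390 (9.37 CPM) and LOC_Os03g59190 (8.99 CPM) outside. Among falls, LOC_Os01g70570 (15.2 CPM) was the lowest inside and LOC_Os04g14810 (9.62 CPM), LOC_Os07g43740 (9.22 CPM) and LOC_Os12g12854 (9.06 CPM) were outside. Of these, LOC_Os07g43740 fell short of the floor with 9.22 CPM in WT, 0.0625 CPM in ossro1c-labelled libraries and 8.69 CPM in osdreb2b-labelled libraries.

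Replicate 3 of ossro1c was above both of the other ossro1c libraries in 26 of the 38 rises (68.4%), below both in 10 and between them in 2. Over all 12605 loci it was above both in 44.2%, and over the 321 other loci at least 6-fold higher in ossro1c-labelled libraries in 63.2%. Replicate 3 divided by the mean of replicates 1 and 2 had a median of 1.12 over the rises and ran from 0.744 to 1.47. The 3 loci with the highest ratio in the set, LOC_Os09g02150, LOC_Os01g36850 and LOC_Os11g11694, were lowest in replicate 3. Without replicate 3, 34 loci met the rule as rises, 33 of them among the 38. For the falls, without replicate 3 of ossro1c 3 loci met the rule, and without replicate 1 of ossro1c 8 did. The part of the difference between replicate 3 and the other ossro1c libraries in membership beyond these counts was not tested.

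**Figure D4:**
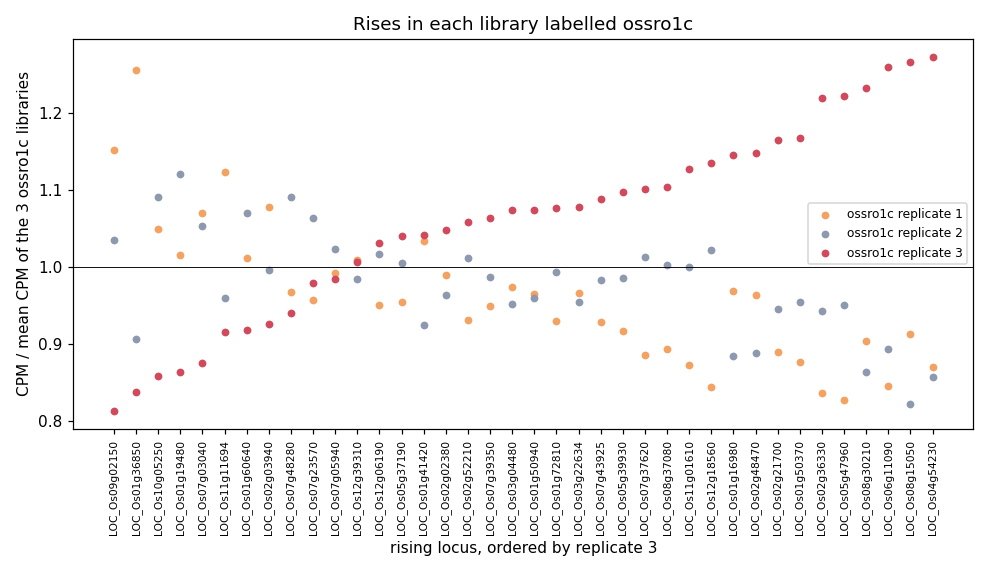
CPM of each of the 38 rises in each ossro1c library, divided by the mean of the 3 ossro1c libraries (vertical axis), with loci ordered by replicate 3. Replicate 3 (red) lies above both other libraries in 26 loci and below both in 10, on the left.

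The members did not form a block in the genome. Going by their identifiers, the rises lay on all 12 chromosomes, with 8 on chromosome 1, 7 on chromosome 7 and 6 on chromosome 2. These chromosomes held 14.3%, 7.53% and 11.6% of all tested loci, and chromosome 3, with 12.7%, held 2 rises. The falls lay on 5 chromosomes, and the spread over chromosomes was not tested. No pair of members lay within 50 locus numbers of each other (a distance of about 5 gene models); the closest pair, LOC_Os01g50370 and LOC_Os01g50940, was 570 locus numbers apart. None lay within 1000 locus numbers of OsSRO1c, and the nearest was 6050 away.

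Loci numbered next to the members were then counted, since position played no part in membership. Of 205 tested loci within 50 locus numbers of a rise, 64 (31.2%) were called higher in ossro1c-labelled libraries than in WT and 54 (26.3%) lower, and 87 passed in neither direction (edgeR, adjusted p under 0.05). Over all 26112 loci tested, 29.4% were called higher and 31.4% lower (60.9% in either direction), so the share of higher neighbours was near the background at this distance. Within 20 locus numbers the shares were 36.8% higher and 19.5% lower of 87 loci, which were not tested against the background. Over the 205 loci within 50 locus numbers of a rise, the median log2 fold change was 0.02. Of these 205, 40 (19.5%) were called higher with a log2 fold change of at least 1. The share over all tested loci was 17.6%. Of 30 tested loci next to a fall, 9 were called higher and 13 (43.3%) lower, with a median log2 fold change of -0.65. This last share rests on 30 loci around 5 members and was not tested against the background.

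**Figure D5:**
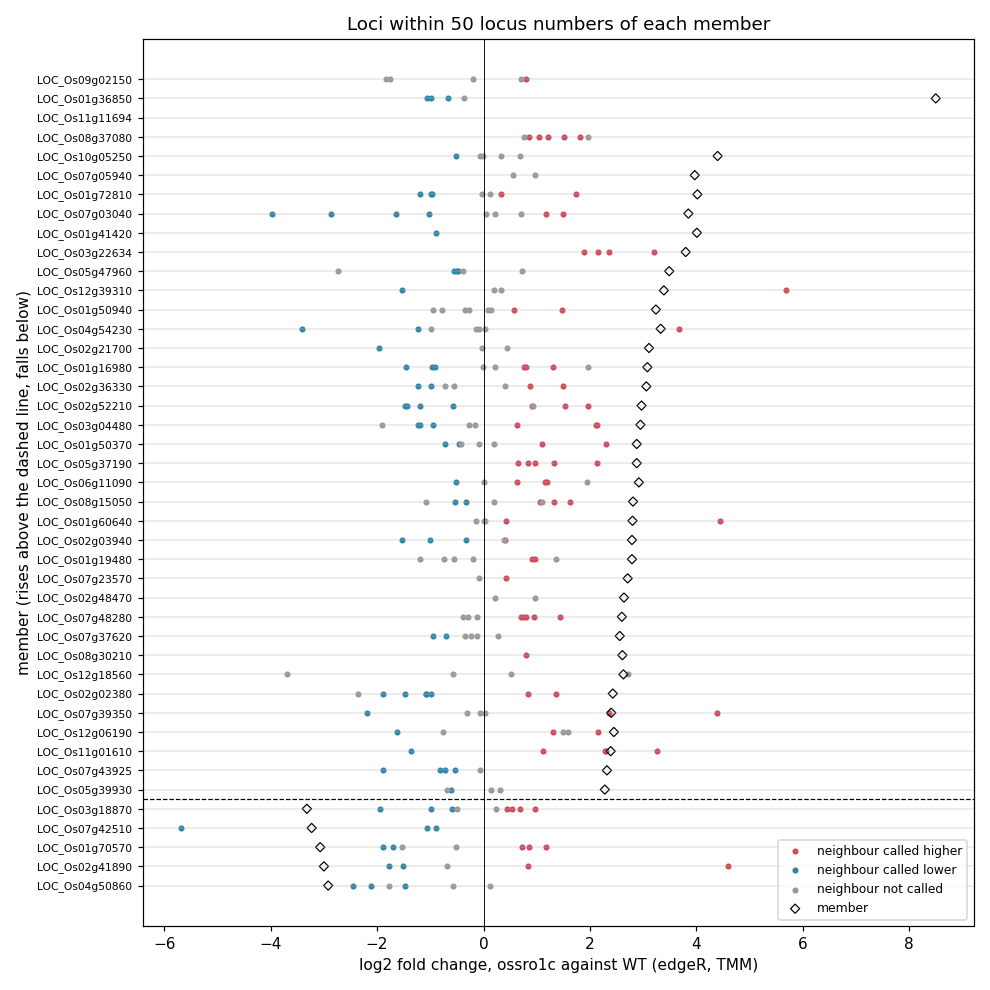
Log2 fold change of ossro1c against WT (edgeR with TMM scaling, horizontal axis) for tested loci within 50 locus numbers of each member, red where called higher, blue where called lower and grey where not called, with the member itself as an open diamond except for the 3 loci with no count in WT. Neighbours of most rises lie on both sides of 0.

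The following neighbours were chosen after their values were seen, and neighbours of some other rises went the opposite way. Of 5 tested neighbours of LOC_Os07g43925, 0 were called higher in ossro1c-labelled libraries and 4 lower. The counts were 2 higher and 5 lower of 8 for LOC_Os02g02380, and 0 higher and 3 lower of 4 for LOC_Os01g36850. Next to LOC_Os05g37190, whose level was 8.85 ± 0.546 CPM in WT against 81.11 ± 3.496 CPM in ossro1c-labelled libraries (SD, n = 3), all 5 tested neighbours were called higher, by log2 fold changes of 0.64 to 2.13. Next to LOC_Os03g22634 all 4 were, and next to LOC_Os08g37080 5 of 7, with LOC_Os08g37104 rising from 5.832 ± 0.1145 to 25.73 ± 1.812 CPM (log2 fold change 1.82, SE 0.12, adjusted p = 1.8e-08, edgeR). LOC_Os08g37104 also rose in osdreb2b-labelled libraries, by 1.63 (SE 0.12, adjusted p = 5.2e-08), where LOC_Os08g37080 had no count. The locus numbered directly after LOC_Os07g39350, LOC_Os07g39360, rose from 0.3835 ± 0.1201 to 10.01 ± 3.163 CPM in ossro1c-labelled libraries (log2 fold change 4.38, SE 0.30, adjusted p = 2.7e-08), and reached 0.92 ± 0.01353 CPM in osdreb2b-labelled libraries (1.12, SE 0.31, adjusted p = 6.4e-03). LOC_Os01g60600, 40 locus numbers before LOC_Os01g60640, rose from 2.901 ± 0.4381 to 78.47 ± 1.248 CPM in ossro1c-labelled libraries and to 9.017 ± 1.141 CPM in osdreb2b-labelled libraries.

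Beside the falls, LOC_Os04g50864 is numbered directly after LOC_Os04g50860. It fell from 229.4 ± 0.5337 CPM in WT to 65.56 ± 7.435 CPM in ossro1c-labelled libraries (log2 fold change -2.12, SE 0.09, adjusted p = 2.8e-10, edgeR), and was at 60.35 ± 0.7569 CPM in osdreb2b-labelled libraries (-2.07, SE 0.09, adjusted p = 3.0e-10). Both loci were thus lower under both labels, the neighbour about equally so. Of 9 tested neighbours of LOC_Os03g18870, 4 were called higher in ossro1c-labelled libraries and 3 lower. All 3 tested neighbours of LOC_Os07g42510 were called lower in ossro1c-labelled libraries. Among these, LOC_Os07g42560 fell from 2.429 ± 0.194 to 0.06041 ± 0.06991 CPM (-5.69, SE 0.43, adjusted p = 7.4e-08) and rose to 10.53 ± 1.216 CPM in osdreb2b-labelled libraries (1.98, SE 0.28, adjusted p = 3.1e-05). Whether the counting used strand, and how reads shared between overlapping or near-identical loci were assigned, is not stated in the labels, so values of adjoining loci may share reads.

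None of the listed genes with a checked name was a member. Members are only 43 of the 12605 loci with a highest mean of at least 10 CPM, so nothing is read from this absence. Of 138 listed rice genes in cold, hormone, nutrient, heat, defence, clock and photosynthesis pathways, 96 could be matched to the reference gene table by name and position, and 79 of these were tested. Among the 42 left out, the locus LOC_Os07g05940 is a rise described above. In ossro1c-labelled libraries 36 of the 79 were called higher and 21 lower, where 29.4% and 31.4% of all tested loci were. In osdreb2b-labelled libraries 33 were called higher and 29 lower, where 29.9% and 29.6% of all tested loci were. Of the 55 with at least 10 CPM in a genotype, 10 were at least 6-fold higher in ossro1c-labelled libraries. All 10 were more than 1.5-fold above WT in osdreb2b-labelled libraries as well, where 88.9% of all 359 such loci were. Another 7 were at least 6-fold lower, 5 of them heat shock genes. All 7 were more than 1.5-fold below WT in osdreb2b-labelled libraries, where 94.3% of all 227 such loci were. Within 1.5-fold of WT in osdreb2b-labelled libraries lay 16 of the 55, beside 43.2% of all 12605 loci.

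Among these 16 genes, the largest ratio of ossro1c to WT was that of OsAMT1;1 (LOC_Os04g43070), an ammonium transporter. It rose from 88.05 ± 3.4 CPM in WT to 296.3 ± 25.62 CPM in ossro1c-labelled libraries (SD, n = 3; log2 fold change 1.43, SE 0.09, adjusted p = 1.1e-08, edgeR) and fell to 65.35 ± 4.776 CPM in osdreb2b-labelled libraries (-0.57, SE 0.09, adjusted p = 8.5e-05). Its list held nitrate and ammonium uptake genes and the nitrate reductase gene NIA1 (LOC_Os08g36480). In it 5 of 5 tested genes were called higher in ossro1c-labelled libraries, and 1 higher and 1 lower in osdreb2b-labelled libraries (median log2 fold changes 1.76 and 0.01, against 0 and 0.03 over all tested loci). The gene called higher in osdreb2b-labelled libraries was NIA1 (log2 fold change 3.25, SE 0.08, adjusted p = 1.2e-12, edgeR). In the jasmonate list 5 of 9 were called higher and 1 lower in ossro1c-labelled libraries, against 0 higher and 7 lower in osdreb2b-labelled libraries (medians 0.37 and -0.70). Under library totals the jasmonate counts were 8 higher and 1 lower, against 1 higher and 6 lower. The shares of all tested loci given for the 79 genes are the background of the list counts under TMM only. Under library totals, 39.3% of all tested loci were called higher in ossro1c-labelled libraries and 22.9% lower. The shares for osdreb2b-labelled libraries under library totals are not given here. The difference between the mutant labels was not tested for either list. OsDREB1C (LOC_Os06g03670), a CBF-type activator of cold-induced genes, rose far more in ossro1c-labelled libraries, from 1.957 ± 0.2866 to 123.3 ± 23.28 CPM (log2 fold change 5.66, SE 0.17, adjusted p = 1.4e-11), but also rose to 4.572 ± 0.2738 CPM in osdreb2b-labelled libraries (1.08, SE 0.16, adjusted p = 4.3e-05), which puts it outside the limits.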

How the data were processed

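The authors deposited raw counts per locus for 9 libraries in 1 table, not normalised, and 0 of its sample columns were left unused. HISAT2 2.2.1, StringTie 2.1.4, fastp 0.23.4 and DESeq2 stand in the submitters' processing notes without their roles. The sources used here give no genome build or annotation. Per the labels' protocols, TRIzol was used for extraction and a SMARTER mRNA kit for the libraries. Groups and replicate numbers came from the sample titles.

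CPM by library total was used for membership and for the values printed; no length was used, so levels are not compared between loci. Tests used edgeR 4.0.16 (R 4.3.3; limma 3.58.1) by robust quasi-likelihood with TMM and filterByExpr, 1 coefficient per genotype over all 9 libraries and Benjamini-Hochberg adjustment over 26112 loci at 0.05. DESeq2 1.42.0 was an alternative. Each SE was obtained as |log2 fold change| over the root of the quasi-likelihood F. The fit was tested on simulated counts. Limits from a count of 0 cover counting error only.

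Members and lists were chosen with earlier results of these data known. Loci described singly are OsSRO1c and OsDREB2B, the 8 rises with the largest ratio and the 8 with the highest mean, all 5 falls, and up to 3 on each side of a limit; neighbours and listed genes named beyond that were chosen after their values were seen. The identifiers of OsSRO1c and of the markers RBCS2 and RBCS3 come from rice nomenclature, as these names are not in the reference gene table (assembly ASM3414082v1). Of 138 listed names, 42 were left out of the list counts: 36 were not found there, 5 lay on another chromosome and 1 lay over 1 Mb from its expected position. Promoter sequences were not used here. Same-numbered replicates of different genotypes correlated at -0.06 to 0.09 in their deviations from group means, so the numbers were not taken to pair samples.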

Additional observations from a re-analysis of the deposited data

How the results depend on the processing

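The count of rises (38) became 25 under TMM scaling, 25 with a floor of 20 CPM, 78 with a fold of 4, 20 within 5/4-fold and 65 within 2-fold of WT in osdreb2b. The count of falls (5) became 11 under TMM scaling, 9 under upper-quartile scaling, 2 with 1 CPM added to each mean, 11 with a floor of 5 CPM, 20 with a fold of 4, 0 with a fold of 8, 3 within 5/4-fold and 13 within 2-fold. Leaving out each library in turn gave 34 to 39 rises and 3 to 8 falls; 24 of the 38 rises and 3 of the 5 falls met the rule in all 9 such sets. Higher and lower calls next to rises became 32 and 17 of 87 within 20 locus numbers (36.8% and 19.5%, beside 29.4% and 31.4% of all tested loci) and 123 and 123 of 419 within 100 (29.4% each). Next to falls they became 4 and 7 of 15 (26.7% and 46.7%), and 25 and 23 of 64 (39.1% and 35.9%). Another distance changes the loci counted; for the other shifts the cause was not tested. Under library totals the calls next to rises were 84 higher (41.0%), beside 39.3% of all loci tested. With the replicate block, 62 loci next to rises were called higher and 57 lower, and OsSRO1c and OsDREB2B kept their directions and calls. The 102 alternatives for these transcripts kept direction and call. The 68 for the counts over all listed genes together stayed within 1.5 times. Counts of a single list could move more: under library totals the jasmonate list went from 5 to 8 of 9 called higher in ossro1c-labelled libraries. Settings per named list and for TMM replicate counts were chosen after seeing the data. Levels that rest on few counts or none bound ratios only loosely. Under about 1 CPM the 0.1 CPM added to each mean also weighs on the ratio.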
